A study of Mus musculus with 4 samples.

Results

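Polycomb group proteins were followed here through their transcripts in spermatogonia-enriched cells from the testes of 5-day-old mice with and without the deacetylase SIRT7. The 10 genes described are the core subunits of Polycomb repressive complex 2 (PRC2), Ezh1, Ezh2, Eed and Suz12, the E3 ligase subunits of Polycomb repressive complex 1 (PRC1), Rnf2 and Ring1, the PRC1 subunits Bmi1, Pcgf6 and Cbx2, and the germline Polycomb protein Scml2. They were chosen by name for their place in the complexes and not for any measured value, though earlier results of these data were known. They are 10 of the 78275 genes in the count table. The series holds 4 bulk RNA-seq libraries, 2 labelled Sirt7_KO and 2 labelled WT. Sirt7_KO cells came from Sirt7-/- mice, which carry a knockout of Sirt7 in the whole animal, and WT cells came from wild-type mice of the same age. The study's methods place both genotypes on the 129S1/Sv background, and the labels give no treatment for either group. Cells were enriched for spermatogonia by differential plating, which removes attached somatic cells without a sort, and were frozen as pellets of 200000 cells. The labels number the libraries 1 and 2 within a genotype. The study describes them as biological replicates, and whether each came from 1 animal or from several is not given in the sources used here.

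PRC2 trimethylates histone H3 at lysine 27 (H3K27me3) through EZH2 or its paralog EZH1, and neither enzyme works without EED and SUZ12. PRC1 is built on RNF2 or RING1, which place ubiquitin on histone H2A, together with a PCGF subunit that sets the kind of PRC1 formed. Canonical PRC1 reads H3K27me3 through a CBX subunit, and both complexes keep developmental genes silent. In male germ cells SCML2 joins PRC1 to silence somatic genes and to shape the chromatin of later meiotic cells. SIRT7 removes acetyl groups from histone H3 at lysine 36, and the comparison of Sirt7_KO with WT asks whether its loss goes with a change in transcription in spermatogonia.

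Depth was nearly equal, with 22007504 to 22181066 counts per library. Sirt7 fell to 129 and 122 counts in the Sirt7_KO libraries, against 704 and 692 counts in the WT libraries (log2 fold change -2.47 ± 0.11 SE, adjusted p = 3.63e-06 by edgeR's quasi-likelihood test). The 12 spermatogonial markers checked were all detected and summed to 1980 to 2203 CPM in Sirt7_KO and 2140 to 2205 CPM in WT, CPM being counts scaled to a library of 1000000 reads on tested genes. Somatic and blood cells remained, since Sertoli markers summed to 779 and 932 CPM in Sirt7_KO and 903 and 896 CPM in WT. The sums of 2 lists did not overlap between genotypes, namely the 5 erythroid genes, at 1536 and 1152 CPM in Sirt7_KO against 1017 and 924 CPM in WT, and the 6 stromal genes, at 640 and 734 CPM in Sirt7_KO against 773 and 850 CPM in WT. All 5 erythroid genes had an unadjusted p under 0.05 with none called, and 3 of the 6 stromal genes were called lower. Across 19736 genes tested, 17 (0.0861%) had an adjusted p under 0.1, the threshold for a call throughout, and 1702 (8.62%) had an unadjusted p under 0.05.

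Promoter windows of 4 members are shown because H3K36 acetylation lies mainly at promoters, and because KDM2B and the PCL proteins bring Polycomb complexes to DNA rich in unmethylated CG. Each window runs from 250 bases before to 50 bases from the annotated start of the canonical transcript, read from GRCm39 with the GENCODE M39 annotation, 5′ to 3′ on the strand of the gene, with every CG in capitals. Cbx2 is shown as the 1 member with an unadjusted p under 0.05 (plus strand, chr11:118913538-118913837), Suz12 as the member with the most CG (plus strand, chr11:79883646-79883945), Pcgf6 as the member with the fewest (minus strand, chr19:47039369-47039668), and Scml2 as the most abundant (plus strand, chrX:159945481-159945780, where the canonical start lies inside the annotated gene).
Cbx2: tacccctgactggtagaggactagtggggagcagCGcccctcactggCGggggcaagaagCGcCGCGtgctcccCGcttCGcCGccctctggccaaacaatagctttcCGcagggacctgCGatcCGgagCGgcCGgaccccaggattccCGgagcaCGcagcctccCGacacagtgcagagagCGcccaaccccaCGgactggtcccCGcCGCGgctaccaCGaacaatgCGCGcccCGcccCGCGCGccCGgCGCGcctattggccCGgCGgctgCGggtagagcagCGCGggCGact
Suz12: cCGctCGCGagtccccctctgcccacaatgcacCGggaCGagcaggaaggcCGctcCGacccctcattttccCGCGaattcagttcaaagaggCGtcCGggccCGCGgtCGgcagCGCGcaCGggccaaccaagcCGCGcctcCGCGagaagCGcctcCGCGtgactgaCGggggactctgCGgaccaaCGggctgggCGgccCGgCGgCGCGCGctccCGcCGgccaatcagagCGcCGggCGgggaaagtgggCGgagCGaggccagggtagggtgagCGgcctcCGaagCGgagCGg
Pcgf6: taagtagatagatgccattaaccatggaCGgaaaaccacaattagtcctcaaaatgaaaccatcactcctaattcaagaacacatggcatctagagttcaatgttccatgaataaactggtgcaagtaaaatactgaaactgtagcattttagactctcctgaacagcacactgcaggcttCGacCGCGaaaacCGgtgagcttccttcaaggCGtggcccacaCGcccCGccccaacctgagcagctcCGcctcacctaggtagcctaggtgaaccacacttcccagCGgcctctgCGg
Scml2: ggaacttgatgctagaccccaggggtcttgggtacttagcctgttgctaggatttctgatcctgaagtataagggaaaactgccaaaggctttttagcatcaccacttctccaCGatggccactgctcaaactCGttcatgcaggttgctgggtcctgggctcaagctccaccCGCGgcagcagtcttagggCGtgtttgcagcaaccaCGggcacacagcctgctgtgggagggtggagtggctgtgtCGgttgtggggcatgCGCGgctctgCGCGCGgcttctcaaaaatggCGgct

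The motif counted was CG, which reads the same on both strands, and windows of the same 300 bases at 21770 protein-coding genes held a median of 11. The Suz12 window held 44 CG, a number reached by 1.30% of these windows, and that of Cbx2 held 37, reached by 3.81%. Bmi1 had 41, Ring1 37, Rnf2 35, Ezh2 24, Ezh1 19 and Eed 18, so that 9 of the 10 members lay above the median. The Scml2 window, with 13 CG, and the Pcgf6 window, with 11, were close to it, and as many were found at 45.5% and 50.6% of all windows. The windows of Suz12 and Cbx2 were thus dense in CG, and those of Scml2 and Pcgf6 were not. Suz12 and Pcgf6 were picked as the extremes of this count, and the contrast did not follow the complexes. Bmi1, also a PCGF member, had 41, and the PRC2 members Eed and Ezh1 had 18 and 19. RNA libraries measure neither acetylation nor methylation of these windows.

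All 10 members were well measured, with 317 to 11808 counts in any library, and all lay above the median level per kb of the genes tested. None was called by edgeR, 1 of the 10 (Cbx2) had an unadjusted p under 0.05 (also 1 by DESeq2 and 1 by limma-voom), and none was called by DESeq2 or limma-voom, which called 0.335% and 0.0608% of the genes they tested. The fitted log2 fold changes ran from -0.09 for Pcgf6 to 0.18 for Cbx2, with a median of -0.03 over the members and 0.00 over all genes tested. Both Sirt7_KO libraries stood above both WT libraries for 3 members (Eed, Rnf2 and Cbx2) and below them for 3 (Ring1, Bmi1 and Pcgf6), while 20.3% and 19.4% of all genes tested did so. The other 4 (Ezh1, Ezh2, Suz12 and Scml2) overlapped. The 95% intervals of the fold changes, each for its own gene, ended at 0.819 (Ring1) on the low side and 1.25 (Cbx2) on the high side. The interval of Cbx2 lay above 1 and those of the other members included it, and a missed threshold does not show equal levels.

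**Figure D1:**
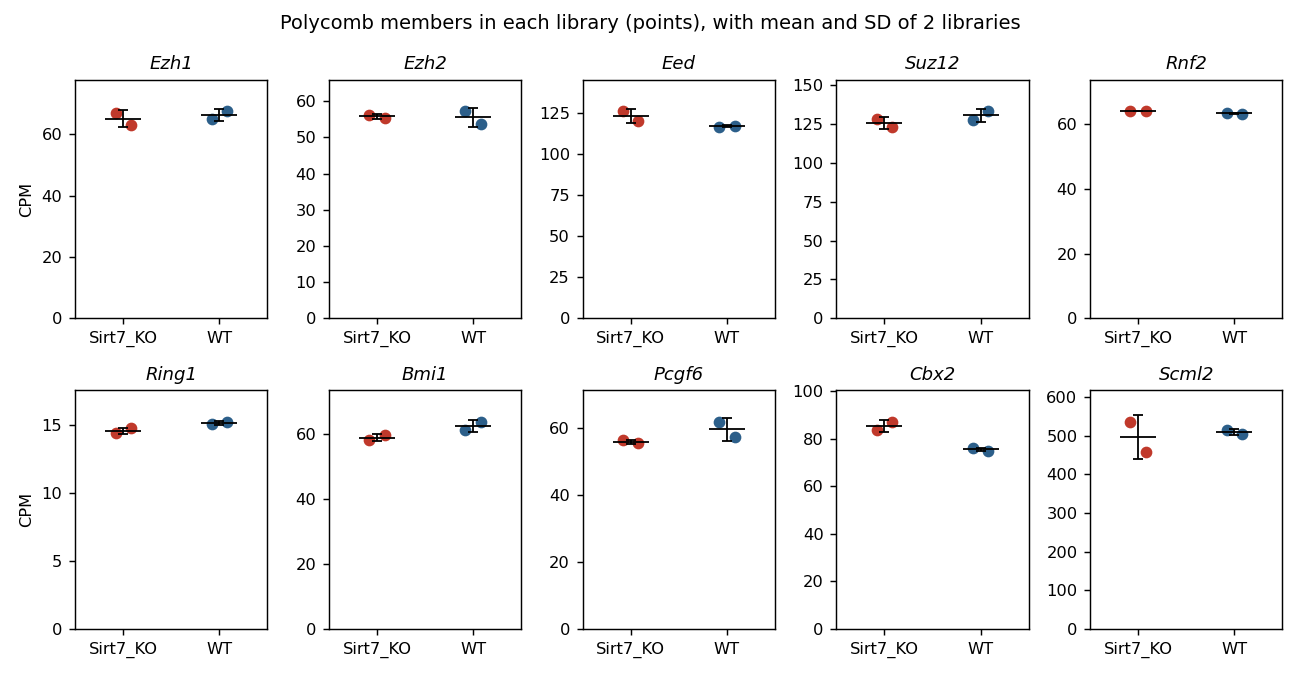
CPM of the 10 Polycomb members in each library (y axis, from 0), with Sirt7_KO libraries in red left of WT libraries in blue, the long bar at the mean and the short bars at ± SD of 2 libraries. Cbx2 points of Sirt7_KO (83.6 and 87.2 CPM) lie above those of WT (75.9 and 74.9 CPM), and the Scml2 points of Sirt7_KO lie on either side of WT.

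Positions of genes below are those of GENCODE M39 on GRCm39. Among the PRC2 core subunits, Eed (chr7:89603862-89630217, minus strand), the WD-repeat subunit that binds H3K27me3 and stimulates the enzyme, had 126 and 120 CPM in the Sirt7_KO libraries, against 116 and 117 CPM in the WT libraries. The Sirt7_KO libraries were the higher pair, but the log2 fold change of 0.08 ± 0.06 (SE) had an adjusted p of 0.777. Suz12 (chr11:79883891-79925421, plus strand), the scaffold on which the accessory subunits are mounted, had 129 and 123 CPM in Sirt7_KO, against 128 and 134 CPM in WT. The genotypes overlapped, with a log2 fold change of -0.05 ± 0.06 and an adjusted p of 0.855. Ezh2 (chr6:47507073-47572331, minus strand), the methyltransferase that predominates in dividing cells, had 56.2 and 55.4 CPM in Sirt7_KO, against 57.4 and 53.7 CPM in WT. Both Sirt7_KO values fell within the WT pair, and the log2 fold change was 0.01 ± 0.07 (95% interval -0.16 to 0.17, adjusted p = 0.986). Ezh1 (chr11:101081934-101117315, minus strand), the paralog with weaker methyltransferase activity that persists in resting cells, had 67.0 and 63.1 CPM in Sirt7_KO, against 64.9 and 67.7 CPM in WT. These overlapped as well, with a log2 fold change of -0.03 ± 0.07 (95% interval -0.19 to 0.13, adjusted p = 0.946). The sign of Ezh2 turned with total-count scaling in place of TMM, and the signs of Ezh1 and Ezh2 turned when some libraries were left out.

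Of the PRC1 ligases, Rnf2 (chr1:151333755-151376729, minus strand), also called RING1B, was the most even member across libraries, at 64.1 and 64.0 CPM in Sirt7_KO and 63.4 and 63.2 CPM in WT. The log2 fold change was 0.02 ± 0.07 with a 95% interval from -0.14 to 0.17 (adjusted p = 0.969). Its paralog Ring1 (chr17:34239766-34243654, minus strand), or RING1A, was the least abundant member per kb, with 14.4 and 14.7 CPM in Sirt7_KO and 15.1 and 15.3 CPM in WT. The WT libraries were the higher pair, by a log2 fold change of -0.06 ± 0.10, which did not pass the test (adjusted p = 0.916), and its SE was the largest of the members.

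Both PCGF members were lower in each Sirt7_KO library than in either WT library, and neither passed the test. Bmi1 (chr2:18681292-18691441, plus strand), or PCGF4, a subunit of canonical PRC1 that holds the Cdkn2a locus silent in many stem cells, had 58.1 and 59.6 CPM in Sirt7_KO, against 61.2 and 63.7 CPM in WT. Its log2 fold change was -0.09 ± 0.07 (95% interval -0.24 to 0.07, adjusted p = 0.773). Pcgf6 (chr19:47022052-47039418, minus strand), the subunit of the variant complex PRC1.6 that represses germline genes in mouse embryonic stem cells, had 56.4 and 55.5 CPM in Sirt7_KO, against 62.0 and 57.3 CPM in WT. Its log2 fold change was also -0.09 ± 0.08 (95% interval -0.26 to 0.07, adjusted p = 0.763). The WT libraries differed from each other by 8.21% for Pcgf6, the widest gap between WT libraries among the members.

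Cbx2 (chr11:118913788-118922100, plus strand), whose chromodomain binds H3K27me3 and which is needed for testis development in mice, had the largest difference and the smallest p of the 10. It had 83.6 and 87.2 CPM in Sirt7_KO (1839 and 1915 counts), against 75.9 and 74.9 CPM in WT (1672 and 1660 counts). The genotypes did not overlap, and the gap between them was wider than the gap inside either pair. The fitted fold change was 1.13, with a 95% interval from 1.02 to 1.25 (log2 0.18 ± 0.07, unadjusted p = 0.0221, adjusted p = 0.501). With each library left out in turn, the log2 fold change ran from 0.15 to 0.21. With all libraries, the alternatives to the processing gave 0.17 to 0.19. The smallest adjusted p among these was 0.384, by edgeR with a replicate block. The erythroid sum was higher and the stromal sum lower in both Sirt7_KO libraries, as given above, none of the markers in these lists was at 0, and their part in the value for Cbx2 was not tested. As RNA was taken from a mixture of cells, a change in the share of cells that express a gene and a change in its RNA per cell cannot be told apart.

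Scml2 (chrX:159865513-160041214, plus strand) was the most abundant member per kb and had the widest spread inside a genotype. It had 537 and 457 CPM in Sirt7_KO, against 514 and 505 CPM in WT. Replicate 1 of Sirt7_KO was the highest of the 4 libraries and replicate 2 the lowest, a gap of 17.4%, while the WT libraries differed by 1.87%. The log2 fold change was -0.04 ± 0.08 (adjusted p = 0.929), and it was 0.08 without replicate 2 of Sirt7_KO and -0.16 without replicate 1 (adjusted p = 0.430). All 12 spermatogonial markers were also lower in replicate 2 than in replicate 1 of Sirt7_KO, and their sum was 1980 CPM against 2203 CPM. In the same pair none of the 7 Sertoli markers and none of the 5 peritubular myoid markers was lower in replicate 2, and the myoid sum was 672 CPM in replicate 2 and 488 CPM in replicate 1. All 5 erythroid genes were lower in replicate 2 as well, with a sum of 1152 CPM against 1536 CPM. So were 3 of 5 Leydig, 1 of 6 stromal, 2 of 4 endothelial and 2 of 4 macrophage and leukocyte genes. Divided by the spermatogonial sum, Scml2 came to 0.244 and 0.231 in Sirt7_KO and 0.240 and 0.229 in WT. The ratio of replicate 2 of Sirt7_KO lay between those of the WT libraries, and the part of the cell mixture in the value for Scml2 was not tested. Of the 10 members, 7 were lower in replicate 2 than in replicate 1 of Sirt7_KO, and the median gap between the Sirt7_KO libraries was 3.42%, against 3.03% between the WT libraries.

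**Figure D2:**
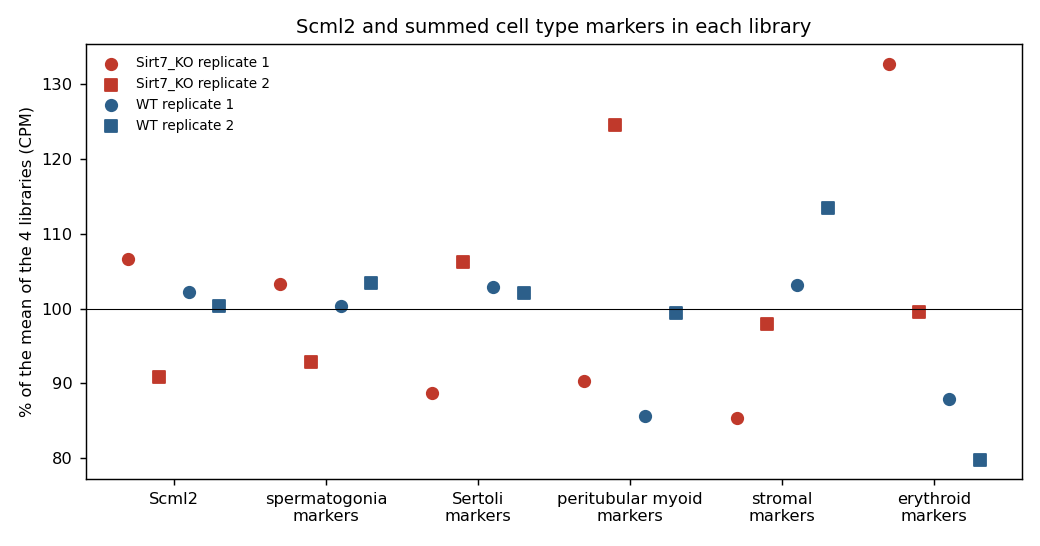
Scml2 and the summed markers of 5 cell types in each library, as % of the mean of the 4 libraries in CPM (y axis, not from 0), with Sirt7_KO in red, WT in blue, circles for replicate 1 and squares for replicate 2. Scml2 and the spermatogonial sum are lowest in replicate 2 of Sirt7_KO, at 90.8% and 92.9% of their means, where the myoid sum is highest at 124%.

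To order the members by abundance, CPM were divided by the length in kb of all annotated exons of a gene. Scml2 stood first with a mean level of 69.2 CPM per kb over the 4 libraries, then Eed with 31.1, Cbx2 with 18.0, Suz12 with 17.0, Rnf2 with 13.7, Bmi1 with 13.4, Pcgf6 with 9.90, Ezh2 with 7.63, Ezh1 with 7.10 and Ring1 with 4.40. Cbx2 and Suz12 overlapped over the libraries, as did Rnf2 and Bmi1, while every other neighbour in this order was apart from the next. The length used matters, since with the canonical transcript alone Pcgf6 moved to place 4 with 25.8 CPM per kb, beside Suz12 with 26.3, and Cbx2 to place 5 with 21.1, while Scml2, Eed and Ring1 kept the first, second and last places. Eed exceeded Suz12, its partner in the same complex, by a log2 ratio of levels per kb of 0.93 ± 0.00897 (SD, n = 2) in Sirt7_KO and 0.81 ± 0.0385 in WT. The libraries of the genotypes did not overlap in this ratio, and with 2 libraries against 2 an exact permutation test cannot give a two-sided p below 0.333.

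Paralogs were then set against each other within each library, as shares of their family's summed CPM per kb. Ezh2 supplied 52.1 ± 0.799% of the EZH transcripts in Sirt7_KO and 51.5 ± 1.88% in WT (mean ± SD, n = 2 each), so that neither methyltransferase predominated in these preparations. Rnf2 supplied 76.1 ± 0.317% of the RING transcripts in Sirt7_KO and 75.2 ± 0.199% in WT, and held about the same lead with the canonical lengths, at 73.8% in Sirt7_KO and 72.8% in WT. Of the 6 PCGF genes, Bmi1 had 24.3 ± 1.39% in Sirt7_KO and 25.9 ± 1.30% in WT, and Pcgf6 had 17.9 ± 0.487% in Sirt7_KO and 19.2 ± 0.665% in WT. Which PCGF gene led depended on the length, since with the canonical transcripts Pcgf6 had the largest share, at 24.0% in Sirt7_KO and 26.0% in WT. The level of Bmi1 was likewise above that of Pcgf2 with all exons (log2 ratio 1.26 in Sirt7_KO and 1.45 in WT) and below it with the canonical transcripts (log2 ratio -0.39 in Sirt7_KO and -0.19 in WT). Shares of a family sum to 100%, and a rise in one lowers the others by construction.

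**Figure D3:**
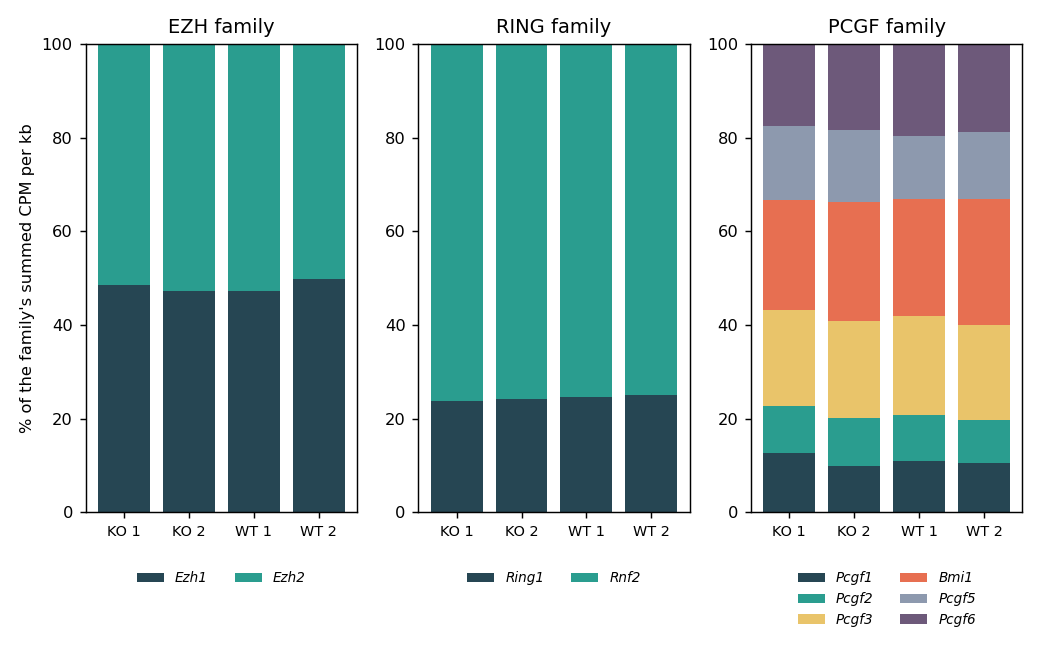
Share of each gene in the summed CPM per kb of all exons of its family (y axis, %) in every library, Sirt7_KO left of WT, for the EZH, RING and PCGF families. Rnf2 takes 75.0 to 76.3% of the RING family in every library and the EZH genes divide theirs nearly evenly.

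The other genes of the pathway were taken from a list of 44 subunits, recruiters and opposing enzymes, all of which were tested. None was called by edgeR, DESeq2 or limma-voom. By edgeR, 7 of the 44 had an unadjusted p under 0.05 (2 by DESeq2 and 7 by limma-voom), 4 of them higher and 3 lower in Sirt7_KO. Over all genes tested by edgeR, 8.62% had such a p. Both Sirt7_KO libraries were above both WT libraries for 10 and below them for 7, while 20.3% and 19.4% of all genes tested did so. The median log2 fold change of the 44 was 0.00. Bcor, the BCL6 corepressor of the variant complex PRC1.1, had the smallest p of the list, with 51.1 and 46.2 CPM in Sirt7_KO, against 37.8 and 40.8 CPM in WT. The libraries did not overlap, and the log2 fold change of 0.31 ± 0.09 had an adjusted p of 0.366. In the same role, Max, the bHLH partner of MGA in PRC1.6, had a log2 fold change of 0.17 ± 0.07 (adjusted p = 0.528), and Rybp, which binds RNF2 in variant PRC1 in place of a CBX subunit and was the most abundant of the role per kb, had 0.05 ± 0.06. Without replicate 2 of Sirt7_KO, Bcor and Pcgf5 passed the threshold (log2 0.38 and 0.24, adjusted p = 0.0565 and 0.0986), and no other setting gave a call in the list. In that setting 2.23% of all genes tested were called, against 0.0861% with all libraries.

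Among the other PCGF genes, Pcgf5 had 129 and 119.4 CPM in Sirt7_KO, against 107 and 112 CPM in WT (log2 fold change 0.18 ± 0.07, adjusted p = 0.501). Pcgf5 and Pcgf3 encode interchangeable subunits of variant PRC1 that ubiquitinates H2A broadly, and Pcgf3 had 117 and 111 CPM in Sirt7_KO, against 118 and 109 CPM in WT. Pcgf2, or Mel18, the close paralog of Bmi1, had 57.7 and 55.6 CPM in Sirt7_KO, against 55.2 and 50.1 CPM in WT, and its log2 fold change of 0.11 ± 0.08 did not pass (adjusted p = 0.738). Pcgf2 and Bmi1 lay on opposite sides of WT, without overlap in either, and neither difference passed the test. Of the polyhomeotic genes, which polymerise canonical PRC1, Phc1 and Phc2 were the most abundant per kb, with log2 fold changes of 0.02 ± 0.07 and -0.06 ± 0.06. Scmh1, a relative of Scml2, had -0.15 ± 0.08 (adjusted p = 0.619).

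Around PRC2, the histone-binding subunits Rbbp7 and Rbbp4, which serve other chromatin complexes too, were the most abundant accessory genes per kb, with log2 fold changes of 0.06 ± 0.06 and 0.09 ± 0.06. Phf19, a PCL protein, was the least certain of those with a small p, at 4.05 and 3.19 CPM in Sirt7_KO, against 4.50 and 5.19 CPM in WT (log2 fold change -0.42 ± 0.19, adjusted p = 0.575). Its paralog Phf1 stood on the other side, with 34.8 and 37.9 CPM in Sirt7_KO, against 34.1 and 31.5 CPM in WT (log2 fold change 0.15 ± 0.09). Of the enzymes that remove the mark of PRC2, Kdm6a had 50.2 and 49.4 CPM in Sirt7_KO, against 58.8 and 53.8 CPM in WT (log2 fold change -0.18 ± 0.08, adjusted p = 0.575). Kdm6b was more abundant per kb (a mean of 37.0 CPM per kb, against 5.82 for Kdm6a), with 253 and 271 CPM in Sirt7_KO and 250 and 255 CPM in WT, and overlapped between genotypes. Among genes that take ubiquitin off H2A, Bap1 and its cofactor Asxl1 had log2 fold changes of -0.01 ± 0.06 and -0.03 ± 0.06. Sfmbt2, the MBT-domain partner of the DNA-binding factor Yy1 in PhoRC, had 32.5 and 29.5 CPM in Sirt7_KO, against 36.8 and 36.6 CPM in WT (log2 fold change -0.24 ± 0.09, adjusted p = 0.497), and Yy1 itself overlapped (-0.07 ± 0.08).

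**Figure D4:**
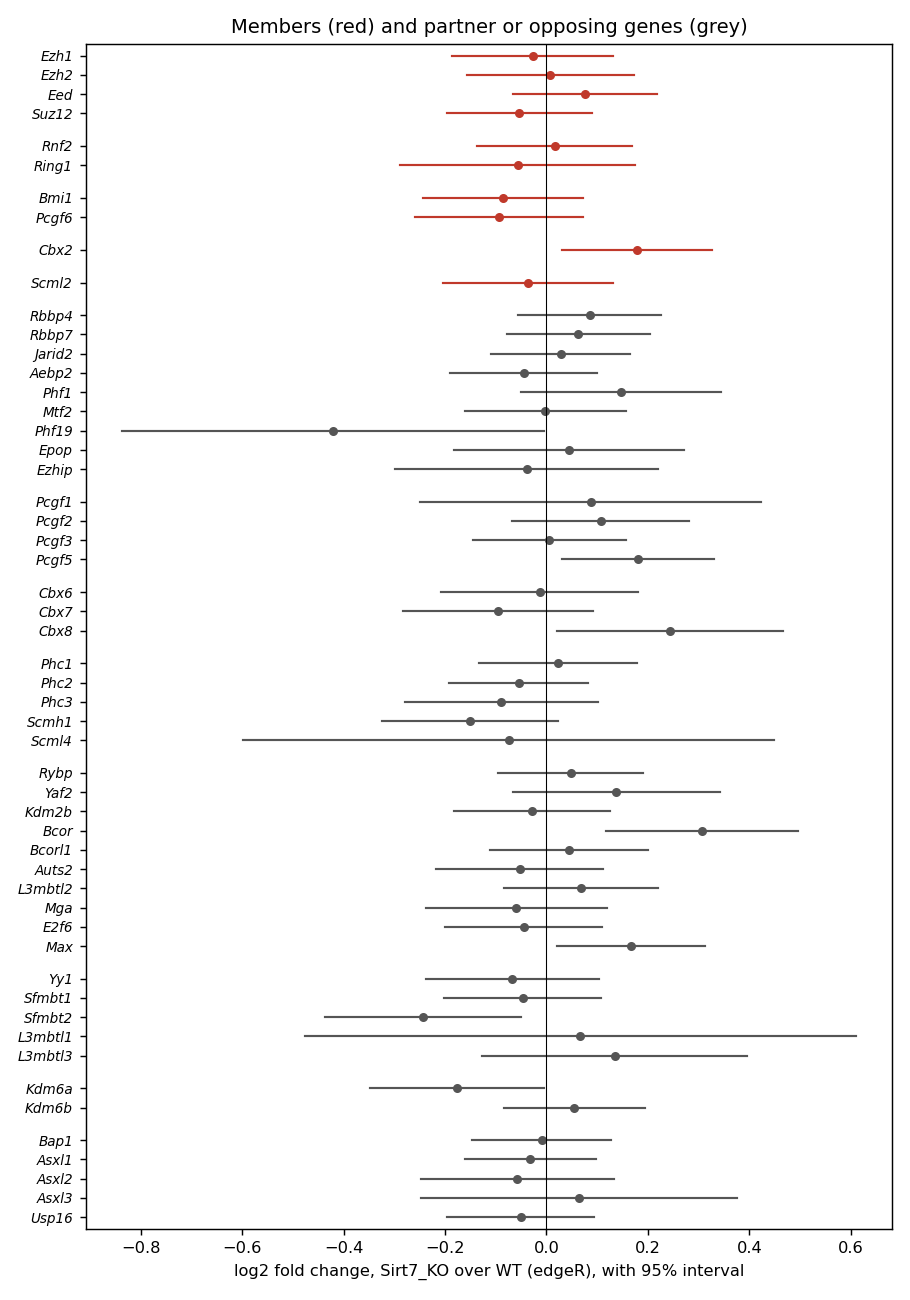
Log2 fold change of Sirt7_KO over WT (x axis) with its 95% interval from edgeR for the 10 members in red and partner or opposing genes in grey, grouped by role. The member points lie between -0.09 and 0.18, and the intervals of 9 of the 10 members include 0, that of Cbx2 being the exception.

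Cbx2 lies beside Cbx8 on chromosome 11, the chromosome that also carries Sirt7, and its neighbours were therefore examined. The 2 genes lie on opposite strands with their 3′ ends facing each other, 5.03 kb apart. Cbx8, another chromodomain subunit of canonical PRC1, had 32.0 and 28.0 CPM in Sirt7_KO, against 26.6 and 24.1 CPM in WT. Its libraries did not overlap either, with a log2 fold change of 0.24 ± 0.10 (unadjusted p = 0.0349, adjusted p = 0.545). Cbx7, on chromosome 15, had 52.5 and 46.2 CPM in Sirt7_KO, against 54.1 and 51.4 CPM in WT (log2 fold change -0.10 ± 0.08). The ratio of Cbx2 to Cbx8 overlapped between genotypes.

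Cbx2 ends 1.59 Mb from Sirt7. A group of 4 genes within 0.0755 Mb of Sirt7, Mcrip1, P4hb, Arhgdia and Pcyt2, named because they were called, were with Sirt7 the called genes of the stretch from Cbx2 to just past Sirt7. Between Cbx8 and Gcgr, a gene next to that group, the values of 44 tested genes were compared, of which none was called. The smallest adjusted p among them by edgeR was 0.112. An unadjusted p under 0.05 was found for 4, and for 8.62% of all genes tested. The median log2 fold change of the 44 was 0.02. Both Sirt7_KO libraries were above WT for 8 and below it for 9, against 20.3% and 19.4% of all genes tested. Ezh1 and Suz12 lie on the same chromosome, at 19.4 Mb and 40.6 Mb from Sirt7, with the values given above. Whether sequence linked to the knockout allele plays a part in the values for Cbx2 and Cbx8 was not tested.

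**Figure D5:**
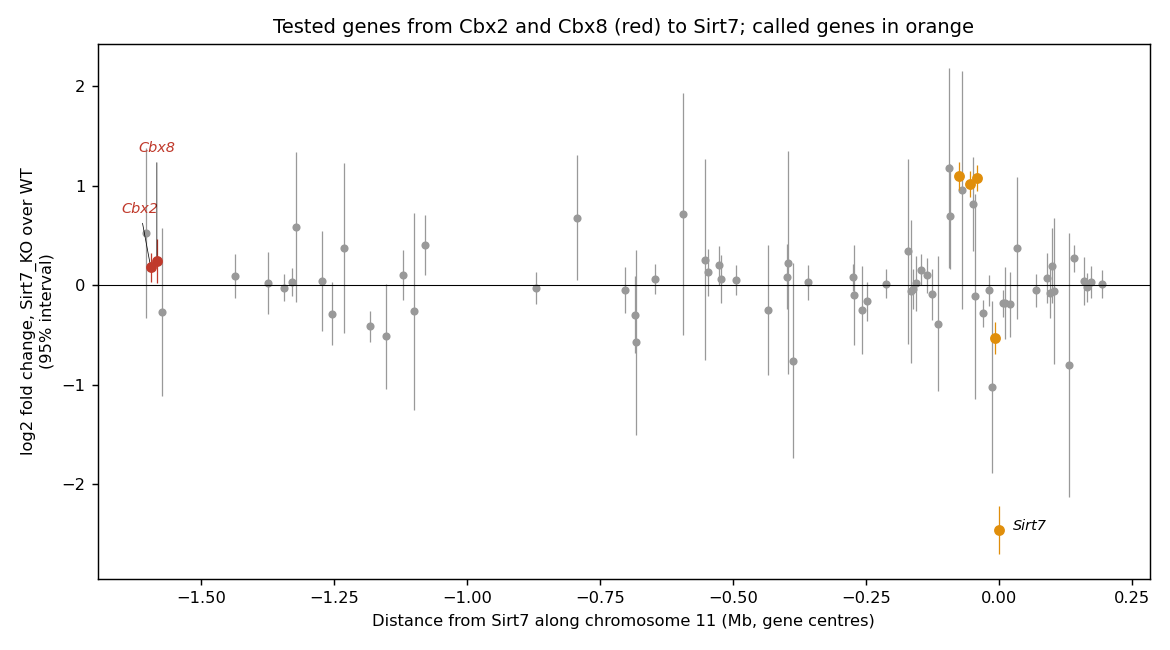
Log2 fold change of Sirt7_KO over WT (y axis) with 95% interval for tested genes from Cbx2 to just past Sirt7, by distance from Sirt7 in Mb (x axis), with Cbx2 and Cbx8 in red and called genes in orange. Called genes lie close to Sirt7, and none of the genes drawn between them and Cbx8 was called.

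Annotated genes overlap several members, and although the library kit was strand-specific, the strand setting of the counting is not given in the sources used here. Exons of Cntnap1 on the opposite strand share 814 of the 9250 exonic bases of Ezh1, but Cntnap1 had 63 to 97 counts in any library, against 1386 to 1499 for Ezh1. Cul1 shares 94 of the 7299 exonic bases of Ezh2 and had 4175 to 4467 counts in any library, against 1190 to 1263 for Ezh2, and reads of the shared bases cannot be told apart if the counting did not use strand. Trmt1l shares 179 of the 4659 exonic bases of Rnf2. Trmt1l had 674 to 810 counts in any library, against 1397 to 1410 for Rnf2. The opposite-strand transcript E230029C05Rik shares 355 of the 3854 exonic bases of Eed. It had 5 to 9 counts in any library, against 2560 to 2773 for Eed. Next to Cbx2, the opposite-strand transcript Gm35829 shares 40 of its 4457 exonic bases and had 17 and 16 counts in Sirt7_KO, against 9 and 14 counts in WT. These overlapping genes were named after their values were seen.

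Downstream of the complexes, 74 genes known as Polycomb targets were examined, 41 of which had counts enough to be tested. None was called by edgeR, DESeq2 or limma-voom, but DESeq2 gave an adjusted p for only 23 of the targets and could call no others. By edgeR 1 of the 41, Hoxb7, had an unadjusted p under 0.05 (0 by DESeq2 and 2 by limma-voom), against 8.62% of all genes tested. The median log2 fold change of the 41 was 0.01. Both Sirt7_KO libraries were above WT for 8 and below it for 4, while 20.3% and 19.4% of all genes tested did so. Without replicate 2 of Sirt7_KO, 1 target, Mael, passed the threshold (log2 fold change 0.27, adjusted p = 0.0524), in a setting that called 2.23% of all genes tested.

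HOX genes, the classic Polycomb targets, were mostly near the limit of detection. Of the 39, 20 had under 10 counts in every library and 17 were tested, and the CPM of all 39 summed to 56.5 and 61.8 in Sirt7_KO and 62.0 and 60.3 in WT. The HoxA cluster gave 30 and 47 counts in Sirt7_KO and 16 and 21 in WT over its 11 genes, and the HoxB cluster gave 727 and 789 in Sirt7_KO and 841 and 785 in WT over its 10 genes. Hoxb9, a posterior HoxB gene and the most abundant HOX gene per kb, had 532 and 662 counts in Sirt7_KO, against 640 and 605 in WT (log2 fold change -0.05 ± 0.11). Hoxd9 had 157 and 160 counts in Sirt7_KO, against 161 and 172 in WT (-0.06 ± 0.14). Hoxb7 had 28 and 17 counts in Sirt7_KO, against 41 and 36 in WT, with a log2 fold change of -0.76 ± 0.31 and an adjusted p of 0.528. Hoxd4, with 7 and 1 counts in Sirt7_KO and 10 and 11 in WT, had the widest interval of the named HOX genes, from -2.76 to 0.05. The tested HOX genes had a median log2 fold change of -0.08.

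Of 22 other developmental regulators, 11 were tested, and they had a median log2 fold change of 0.16 with none called. Cdkn2a, which encodes cell cycle inhibitors and is a known target of BMI1 and CBX proteins, had 57.2 and 51.7 CPM in Sirt7_KO, against 50.8 and 50.6 CPM in WT (log2 fold change 0.10 ± 0.08, adjusted p = 0.751). Its neighbour Cdkn2b overlapped, with 276 and 239 counts in Sirt7_KO and 249 and 215 in WT. Nkx2-5, a regulator of heart development, had 11 and 10 counts in Sirt7_KO, against 6 and 6 in WT. Its libraries did not overlap, but the log2 fold change of 0.80 ± 0.46 had a 95% interval from -0.22 to 1.82 (adjusted p = 0.658).

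The germline genes that PRC1.6 represses in mouse embryonic stem cells are active in the male germ line, and all 13 were tested here at well-measured levels. None was called, and their median log2 fold change was -0.01. Of the 13, 12 overlapped between genotypes, as did 11906 of all 19736 genes tested. Taf7l, a germ-cell subunit of the general transcription machinery and the most abundant of them per kb, had 293 and 269 CPM in Sirt7_KO, against 269 and 275 CPM in WT (0.05 ± 0.06). Mael, a factor of the piRNA pathway, had 233 and 199 CPM in Sirt7_KO, against 199 and 186 CPM in WT (0.16 ± 0.08, adjusted p = 0.604). Sycp3, a protein of the meiotic chromosome axis, was the 1 gene of the 13 that did not overlap, with 54.2 and 49.4 CPM in Sirt7_KO, against 45.8 and 46.7 CPM in WT (0.16 ± 0.08, adjusted p = 0.600). The lower level of Pcgf6 in both Sirt7_KO libraries and these values stand side by side, and no relation between them was tested over 4 libraries.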

How the data were processed

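Bulk RNA-seq was analysed in 2 Sirt7_KO and 2 WT libraries. The deposited values are counts per gene, which the authors made by aligning reads to GRCm39 with HISAT2 and counting with featureCounts. The library kit was strand-specific. The sources used here give no versions, no gene annotation and no strand or multi-mapping setting of the counting. Identifiers were matched without version to GENCODE M39 (78263 of 78275). Genes were filtered with filterByExpr (minimum count 10) and tested with edgeR 4.0.16 in R 4.3.3 (TMM, quasi-likelihood F test, no covariates). P-values were adjusted by Benjamini-Hochberg over 19736 genes, with a call under 0.1. Fold changes are Sirt7_KO over WT, and SE is the log2 fold change over the square root of F. CPM were counts over the TMM-scaled library size of the tested genes. Levels per kb used the union of exons of GENCODE M39. Total counts were 22007504 to 22181066 per library. The test was checked on simulated data. Alternatives were DESeq2 1.42.0, limma-voom (limma 3.58.1), scaling by DESeq2 size factors or by total counts, all genes unfiltered, 1 CPM in 2 libraries, an adjusted p under 0.05, a replicate block, each library left out, and canonical transcript lengths.

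Members, lists and tests were chosen with earlier results of these data known. Genes named were Sirt7, all members, and from each role of the partner and target lists the called genes, the 2 with the highest CPM per kb and the 2 with the smallest p. Some genes that this rule selects are not reported here. Any other gene was named with its values already known, as the text says. Cell types were checked with 8 marker lists.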

Additional observations from a re-analysis of the deposited data

How the results depend on the processing

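No member was called under any alternative run. The count of called genes, 17, became 0 without a filter, 48 with DESeq2, 9 at an adjusted p under 0.05 and 236 with a replicate block, and ran from 0 to 465 when a library was left out (0 without either WT library, 465 without replicate 2 of Sirt7_KO, 8 without replicate 1). The block left the 10 members uncalled. Deviations of same-numbered libraries had a correlation of 0.0776 over 19736 genes. With 2 libraries per genotype, this cannot show whether same-numbered libraries share a litter, a day or a batch. Leaving out a library gave 0 to 2 called partner genes and 0 to 1 called target genes. Where a group then held 1 library, it was assumed to vary like the other group.

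Of 47 named genes, 11 changed sign under some alternative, all with a reported log2 fold change of at most 0.07 in size, and 492 of 515 values kept their sign and side. Total-count scaling gave -0.00332 for Ezh2 and -0.00544 for Pcgf3, and no filter gave 0.000793 for Bap1. With a library left out the ranges were -0.0721 to 0.0200 for Ezh1, -0.0381 to 0.0578 for Ezh2, -0.16 to 0.0795 for Scml2, -0.0440 to 0.0599 for Pcgf3, -0.0611 to 0.10 for Phc1, -0.16 to 0.0275 for Yy1, -0.10 to 0.0115 for Sfmbt1, -0.0571 to 0.0408 for Bap1, -0.12 to 0.00721 for Asxl2, -0.22 to 0.0960 for Hoxb9 and -0.0139 to 0.11 for Taf7l. Sirt7 was not called without a filter (log2 fold change -2.46, adjusted p = 0.433) or without a WT library (-2.45 and -2.48).

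The SE of the members ran from 0.06 to 0.10 on the log2 scale. Of the HOX genes, 20 of 39 had under 10 counts in every library.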

Other observations

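The other 3 marker lists overlapped between genotypes. Leydig markers summed to 92.6 and 83.0 CPM in Sirt7_KO and 89.0 and 77.1 CPM in WT, endothelial markers to 74.0 and 76.5 CPM in Sirt7_KO and 74.0 and 96.6 CPM in WT, and macrophage and leukocyte markers to 8.82 and 8.01 CPM in Sirt7_KO and 9.35 and 8.44 CPM in WT.

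Over the 10057 tested genes of at least 10 CPM, the log2 fold change of Sirt7_KO over WT had a Spearman correlation of -0.32 with transcript length. This is a correlation across genes measured in the same 4 libraries, and genes are not independent replicates. Over the 10 Polycomb members it was 0.05. With 10 genes, that value cannot show whether the members share the relation. The part of transcript length in their fold changes was not tested.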
